A study of Homo sapiens with 4 samples.

Results

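The solute carrier genes described here are the 94 gene symbols made of SLC, a family number, the letter A and a member number whose counts, summed over all transcripts and all 4 libraries, reached 100. They were 94 of 264 such symbols with a count and of 14911 gene names in the files. They were chosen by the summed count alone, so a gene could pass through a high level in any of the libraries, and the level of a member is a description. Of the members, 91 have nothing after the pattern. The other 3 carry further letters: SLC9A3R1 is a scaffold protein that binds transporters, SLC2A4RG a DNA-binding protein named after the glucose transporter gene SLC2A4, and SLC7A6OS is named for the strand opposite SLC7A6. None of these 3 is a transporter. They have a class of their own among the roles below, but counts over the 94 members include them. The 170 symbols left out had a median summed count of 16, and 68 of them had under 10 counts. Just inside the limit lay SLC43A1 with 100 counts, SLC26A10 with 102 and SLC1A1 with 107, and just outside it SLC2A6 with 97, SLC8A2 with 94 and SLC25A26 with 93.

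Solute carriers are membrane proteins that move amino acids, sugars, ions, metals, nucleotides and vitamins across the plasma membrane and the membranes of organelles. They work as uniporters, as cotransporters that use an ion gradient, or as exchangers, and the SLC25 family sits mainly in the inner mitochondrial membrane. Some act only with a partner, as the light chain SLC7A5 does with the heavy chain SLC3A2. N6-methyladenosine (m6A) is the common internal methyl mark of mRNA, placed mostly at adenosines within the RRACH sequence, in which R stands for a purine and H for any base but G, and GGACU is a favoured form. ALKBH5 is a demethylase that removes it.

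The study asked how ALKBH5 acts in cells damaged by X-rays. HEK293T, a transformed line derived from human embryonic kidney, carried lentiviral pLKO.1 short hairpin RNAs, either a control (shCTL) or one against ALKBH5 (shA5), and infected cells were selected with puromycin. All 4 libraries came from X-ray-exposed cells (10 Gy in the study's methods), and no unirradiated library was analysed here. The hairpin behind shA5 and the time of harvest are not given for these libraries in the sources used here. In each line, polyA+ RNA fragments were sequenced before (input) and after pull-down with an m6A antibody (m6A-IP). There is 1 library per group, so no difference below has a replicate check, and every interval is a 95% interval for counting error alone. PCR copies cannot be told from separate molecules, so these intervals can be too narrow.

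In shCTL the input held 2237819 counts and the m6A-IP 3944402, and in shA5 they held 1311390 and 3148119, and the members took 1.23%, 1.27%, 1.23% and 1.29% of them. ALKBH5 itself had 486 counts (217 CPM, counts per 1000000 counts of the library) in the shCTL input and 145 (111 CPM) in the shA5 input, 0.510 of the control level, which goes with the labels. Among genes known from the HEK293 line, NEFL had 1125 counts in all and LIN28B 204, but NEFM had 17 and PAX2 only 1. Of 18 carriers of differentiated kidney tubule, 9 were not listed and the other 9 had 17, 13, 8 and 7 counts together in the 4 libraries in the order above. The blood and fibroblast markers PTPRC, CD3E, HBB and DCN were not listed, while COL1A1 had 401, 578, 150 and 246 counts. Thus the tubule carriers had few or no counts, as had NEFM and PAX2 of the line's own genes.

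As examples of the favoured sequence form, the GGACT nearest the stop codon is printed for members at both ends of the m6A range described below. Counted from the stop codon, with minus for upstream, they lie from -2149 bases (SLC38A10) to 1250 bases (SLC38A2). The nearest is at -55 (SLC39A3). Windows were read from hg38 with Gencode v44, on the strand of the transcript only, and GGACT is in capitals. The first 4 belong to members with the highest m6A-IP to input ratio in shCTL among those with at least 800 counts, and the next 3 to members with the lowest.
SLC38A10: aggtccccgaGGACTtggcagagga
SLC25A28: actccggcccGGACTacgaggcgct
SLC39A3: tatggccaagGGACTctgatgcatt
SLC16A1: accatctatgGGACTtgtagccaac
SLC38A2: catttgcactGGACTgtcatctcat
SLC38A1: tgggattttgGGACTcgcctttgcc
SLC25A5: gatgatgatgGGACTcaattgtatt

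These windows lie at chr17:81260313-81260317 (minus strand, exon 11 of 16 of SLC38A10, coding), chr10:99620149-99620153 (minus, exon 1 of 4 of SLC25A28, coding), chr19:2736993-2736997 (minus, exon 2 of 2 of SLC39A3, coding) and chr1:112917453-112917457 (minus, exon 4 of 5 of SLC16A1, coding). The others are at chr12:46359859-46359863 (minus, exon 16 of 16 of SLC38A2, 3' UTR), chr12:46229192-46229196 (minus, exon 5 of 17 of SLC38A1, coding) and chrX:119471244-119471248 (plus, exon 4 of 4 of SLC25A5, 3' UTR), each range covering the capitals. Another low member, SLC27A4, has no GGACT in its counted transcript. The most enriched member, SLC38A10, has 1 GGACT in 4491 bases, whereas SLC38A1, near the bottom, has 11 in 8097 bases. The GGACT of SLC38A10 lies in bases that its shorter listed transcript, described below, also has. At least 1 GGACT was found in the most counted transcript of 91 of 93 members placed in the annotation (97.8%) and of 92.9% of 6958 genes tested alike. By end of the range, it was found in 14 of 14 members enriched at least 1.5-fold in shCTL and in 28 of 30 at or below 1/1.5, so most members of both ends hold it. A match is a description of the letters and not of a methylated site.

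The highest levels were found for carriers of mitochondrial energy exchange and of amino acid uptake. Levels of different genes were compared as CPM per kilobase of the counted transcripts in the shCTL input. SLC25A6 and SLC25A5, which swap ADP for ATP across the inner mitochondrial membrane, led with 743 and 674 CPM per kilobase. The glutamine and neutral amino acid transporter SLC1A5 followed at 239 and the arginine and lysine transporter SLC7A1 at 145. SLC2A4RG (121), the mitochondrial iron importer SLC25A28 (117), the mitochondrial phosphate carrier SLC25A3 (109), the creatine transporter SLC6A8 (104) and SLC7A5 (102), the large neutral amino acid transporter, were also among the first 10, of which SLC2A4RG is no transporter. At the other end stood the zinc transporter SLC30A4 at 1.26 and the sodium-proton exchanger SLC9A7 at 1.61. The members were thus spread over a wide range, and the 10 most counted took 51.05% of the members' counts.

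Carriers of the same function differed widely in level. Of the ADP/ATP carriers, SLC25A4 had 12.7 CPM per kilobase, far below SLC25A6 and SLC25A5. Among glucose transporters, SLC2A1 had 61.5, SLC2A4, the insulin-responsive form, 11.5 and SLC2A12 1.84. The heavy chain SLC3A2 stood at 65.1 beside 102 for its light chain SLC7A5, and the cystine importer SLC7A11, another of its light chains, at 5.51. Of the zinc importers, SLC39A3 had 62.5, SLC39A7 21.6 and SLC39A6 6.802. Within the glucose and zinc carriers named here, the leading gene thus stood well above the next.

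These levels depend on which transcripts received counts. PHGDH, the first enzyme of serine synthesis, had 9 counts over the 4 libraries and the stress response factor XBP1 14, although both are commonly well expressed in cultured cells, so the order of levels is that of the counts as deposited. Only 183 transcripts were listed for the members, 48 members had 1 listed transcript, and in 75 members the most counted transcript held at least 90% of the counts. For SLC25A3, 376 of 469 counts fell on a transcript of 580 bases, so its per-length level rests on that short form. SLC25A33 and SLC6A8 share 20.9% and 10.6% of their 50-base stretches with genes elsewhere, SLC6A8 with the pseudogene SLC6A10P, so that reads could be split between the copies. SLC25A6 lies in the pseudoautosomal region, whose sequence is present on X and Y alike. In 32 members an exon overlaps a gene on the opposite strand, and the counting is not stated to use strand.

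**Figure D1:**
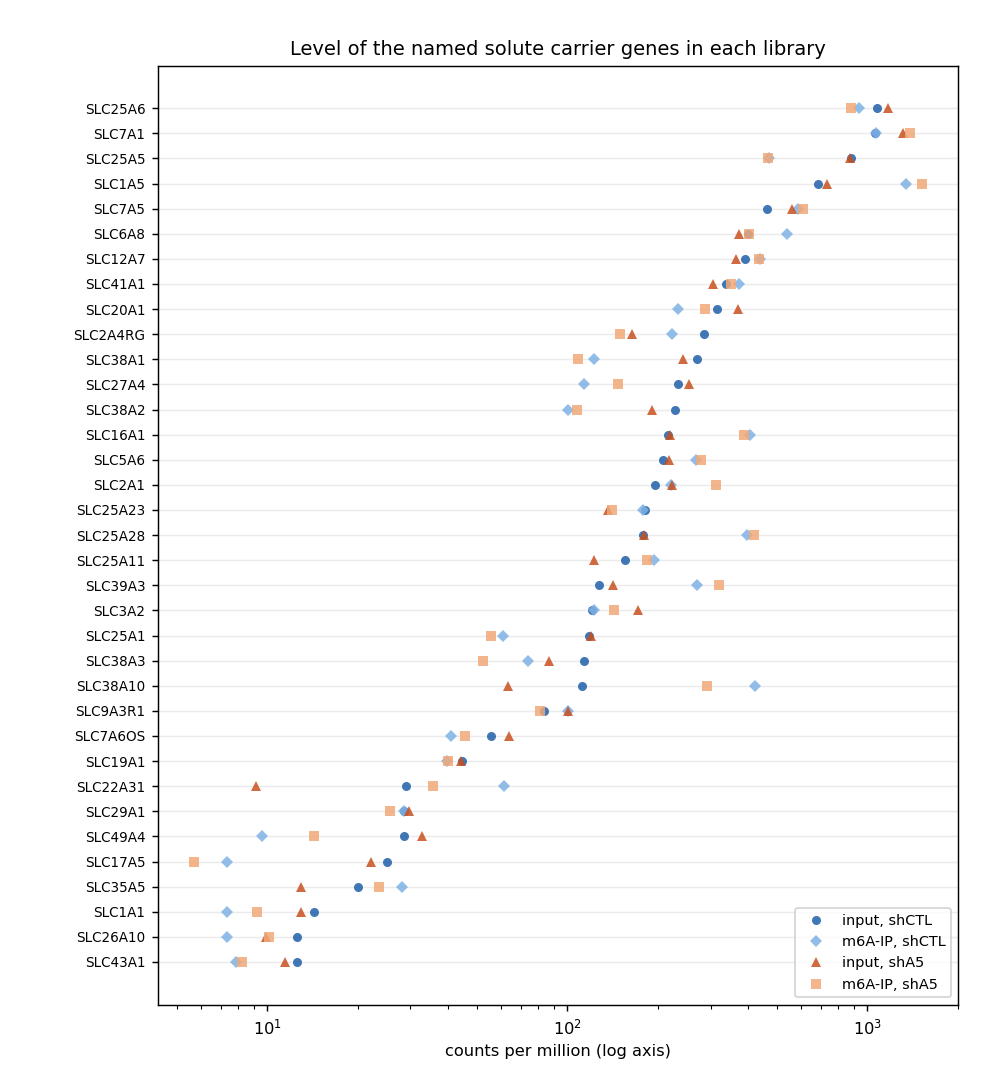
CPM (log axis) of 35 named solute carrier genes in each of the 4 libraries (circles and diamonds for shCTL input and m6A-IP, triangles and squares for shA5), ordered by the shCTL input. The m6A-IP points of SLC38A10, SLC25A28 and SLC39A3 lie to the right of their input points, and those of SLC38A1, SLC38A2 and SLC25A5 to the left, in both lines.

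The first comparison asked which carrier mRNAs the antibody enriched in irradiated shCTL cells. m6A enrichment is given as the log2 ratio of m6A-IP to input CPM with 0.5 CPM added to each, and it is relative to the other RNAs of the same library. In shCTL, 14 members (14.9%) were enriched at least 1.5-fold, against 20.2% of the 7003 gene names with a summed count of at least 100. The other way, 31 members were at or below 1/1.5, a share near the 33.4% of all genes. In shA5, 17 members (18.1%) were enriched and 32 at or below 1/1.5, against 22.2% and 35% of all genes. The median over the members was -0.13 in shCTL and -0.20 in shA5, beside -0.19 and -0.19 over all genes. By counting interval, 26.6% of the members lay above 0 and 41.5% below 0 in shCTL, against 28% and 42% of all genes. As a group, therefore, the carriers lay near the background.

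At the top stood carriers of several substrates. SLC38A10, a relative of the glutamine transporters, had 251 input and 1666 m6A-IP counts in shCTL (112 and 422 CPM), a 3.75-fold ratio with a log2 value of 1.91 (1.72 to 2.11). Its shA5 libraries held 83 and 920 counts (63.3 and 292 CPM) and gave 2.20 (1.88 to 2.55). It was the highest of all 94 members in both lines.

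SLC25A28 measured 179 and 396 CPM in the shCTL input and m6A-IP and 180.0 and 419 CPM in the shA5 pair, with a log2 enrichment of 1.14 (0.99 to 1.31) in shCTL and 1.22 (1.02 to 1.43) in shA5. The zinc importer SLC39A3 had 128 and 270.3 CPM in the shCTL input and m6A-IP and 142 and 319.9 CPM in the shA5 pair, that is 1.08 (0.89 to 1.27) and 1.17 (0.95 to 1.41). In both genes the ratio is over 2 in either line, although they differ in function. For SLC1A5 the levels were 685 and 1343 CPM in the shCTL input and m6A-IP and 734 and 1520.0 CPM in the shA5 pair, and the log2 values 0.97 (0.89 to 1.05) and 1.05 (0.95 to 1.15). The lactate and pyruvate transporter SLC16A1 came next with 216 and 407 CPM in the shCTL input and m6A-IP and 220.4 and 388 CPM in the shA5 pair, or 0.91 (0.77 to 1.07) and 0.82 (0.63 to 1.01). In each of these 5 genes both m6A-IP libraries lay above both inputs, and every interval was above 0.

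Among the members with at least 800 counts, the lowest ratios were those of the glutamine transporters SLC38A2 and SLC38A1, while several members with fewer counts lay lower, down to SLC25A40 at -1.82 in shCTL. SLC38A2 measured 229 and 100.1 CPM in the shCTL input and m6A-IP and 191 and 108 CPM in the shA5 pair, with a log2 enrichment of -1.19 (-1.39 to -1.0) in shCTL and -0.82 (-1.07 to -0.58) in shA5. SLC38A1 had 271 and 123 CPM in the shCTL input and m6A-IP and 242 and 109 CPM in the shA5 pair, which gave -1.14 (-1.32 to -0.97) and -1.15 (-1.38 to -0.93). Both inputs were above both m6A-IP libraries in these genes, the reverse of SLC38A10 in the same family.

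The fatty acid transporter SLC27A4 gave -1.04 (-1.23 to -0.86) and -0.78 (-0.98 to -0.57), the mitochondrial citrate carrier SLC25A1 -0.95 (-1.22 to -0.70) and -1.10 (-1.43 to -0.79), and SLC25A5 -0.91 (-1.0 to -0.82) and -0.91 (-1.03 to -0.80), each in shCTL and shA5. The 2 ADP/ATP carriers of highest level thus differed: SLC25A6 stood at -0.21 (-0.28 to -0.13) in shCTL, below 0 but above SLC25A5, and their intervals did not overlap. With the trend of all genes on GC content removed, SLC25A6 stood at -0.49 in shCTL and -0.74 in shA5, beside -0.79 and -0.76 for SLC25A5. SLC25A4 stood at -0.85 (-1.24 to -0.49) in shCTL, an interval that included the value of SLC25A5.

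By role, the mitochondrial carriers were the class with most members below 0. Of these 22 members, 18 were below 0 in shCTL (81.8%, against 57.6% of all genes), 11 were at or below 1/1.5 and 1, SLC25A28, was at least 1.5-fold enriched. Over all genes, 33.4% were at or below 1/1.5 and 20.2% enriched. In shA5, 16 were below 0, 14 at or below 1/1.5 and 3 at least 1.5-fold enriched, against 57%, 35% and 22.2% of all genes. Their median was -0.66 in shCTL and -0.69 in shA5. The aspartate-glutamate carrier SLC25A12 (-1.38, interval -1.77 to -1.03), SLC25A3 (-1.38, interval -1.75 to -1.05) and the ornithine carrier SLC25A15 (-1.26, interval -1.76 to -0.81) were among the low ones. The iron carrier SLC25A37 (0.36, interval 0.22 to 0.50), the oxoglutarate carrier SLC25A11 (0.33, interval 0.14 to 0.52) and the glycine carrier SLC25A38 (0.30, interval 0.0061 to 0.61) were the 3 others above 0. Without the mitochondrial carriers, the median of the other 72 members was 0.021 in shCTL and -0.13 in shA5.

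Carriers of sugars and monocarboxylates lay higher. Of 14 members, 11 were above 0 in shCTL (78.6%, against 42.4% of all genes) and 6 were at least 1.5-fold enriched (against 20.2%), with a median of 0.31 in shCTL and 0.38 in shA5. In shA5, 11 were again above 0, 10 of them the same genes, and 4 were at least 1.5-fold enriched, against 22.2% of all genes. SLC16A1 led among the well counted genes, and SLC2A10, a facilitative glucose transporter, reached 1.01 (0.29 to 1.897) on 18 input counts. Of the 6 enriched in shCTL, SLC16A1 alone had at least 800 counts. SLC2A12 rested on 23 input and 72 m6A-IP counts in shCTL, and SLC16A14 on 17 and 52. The interval of SLC16A14 included 0 (-0.018 to 1.68). The summed count includes the m6A-IP counts, so genes with few input counts can enter through a high m6A-IP, here and among all genes. The share of 6 is therefore a description. The classes follow family numbers, so this one also holds SLC5A5, which moves iodide, and SLC5A3, which moves myo-inositol.

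Among 18 carriers of amino acids and related compounds, the median was -0.55 in shCTL and -0.49 in shA5, although the class held the highest member. In shCTL, 8 of the 18 were at or below 1/1.5 and 2 at least 1.5-fold enriched, against 33.4% and 20.2% of all genes. Among the low ones, beside SLC38A1 and SLC38A2, were SLC7A11 at -1.05 (-1.47 to -0.67) and SLC6A11, which takes up GABA, at -1.37 (-2.06 to -0.79), both in shCTL. Of the 10 metal transporters, 3 were at least 1.5-fold enriched and 3 at or below 1/1.5 in shCTL, against 20.2% and 33.4% of all genes. The enriched ones were the zinc carriers SLC39A3, SLC30A1 (0.81, interval 0.56 to 1.09) and SLC39A7 (0.78, interval 0.48 to 1.10). Among the low ones were SLC30A9 (-1.14, interval -1.47 to -0.83) and the copper importer SLC31A1 (-1.09, interval -1.42 to -0.78). For 13 ion carriers the median was -0.033, with SLC12A9 at 0.63 (0.44 to 0.82) and the anion exchanger SLC26A6 at -1.65 (-2.35 to -1.08). The potassium-chloride cotransporter SLC12A7 was at 0.16 (0.038 to 0.27) in shCTL and 0.26 (0.11 to 0.42) in shA5, but at -0.15 and -0.088 with the trend of all genes on GC content removed, so its direction depends on that step. The phosphate importer SLC20A1 was at -0.43 (-0.58 to -0.29) and the magnesium transporter SLC41A1 at 0.14 (0.017 to 0.27). No test was run between classes, which differ in level as well.

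The smaller classes had 5 members or fewer. The biotin and pantothenate transporter SLC5A6 measured 208 and 269 CPM in the shCTL input and m6A-IP and 218 and 279 CPM in the shA5 pair, with an enrichment of 0.37 (0.22 to 0.53) in shCTL and 0.35 (0.16 to 0.55) in shA5. The folate transporter SLC19A1 was at -0.16 (-0.54 to 0.21) and the nucleoside transporter SLC29A1 at 0.0024 (-0.45 to 0.47) in shCTL, both intervals including 0. SLC35A5, of the nucleotide sugar transporter family, was at 0.47 (-0.027 to 1.02).

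The lysosomal sialic acid exporter SLC17A5 and SLC49A4 are each the only member of their class. SLC17A5 had 56 input and 29 m6A-IP counts in shCTL and 29 and 18 in shA5, which gave -1.70 (-2.47 to -1.10) and -1.86 (-2.89 to -1.05). SLC49A4 had 64, 38, 43 and 45 counts in the same order, and -1.52 (-2.19 to -0.97) and -1.17 (-1.83 to -0.56). Of the names with further letters, SLC7A6OS was at -0.45 (-0.80 to -0.10) and SLC2A4RG at -0.36 (-0.51 to -0.21) in shCTL.

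**Figure D2:**
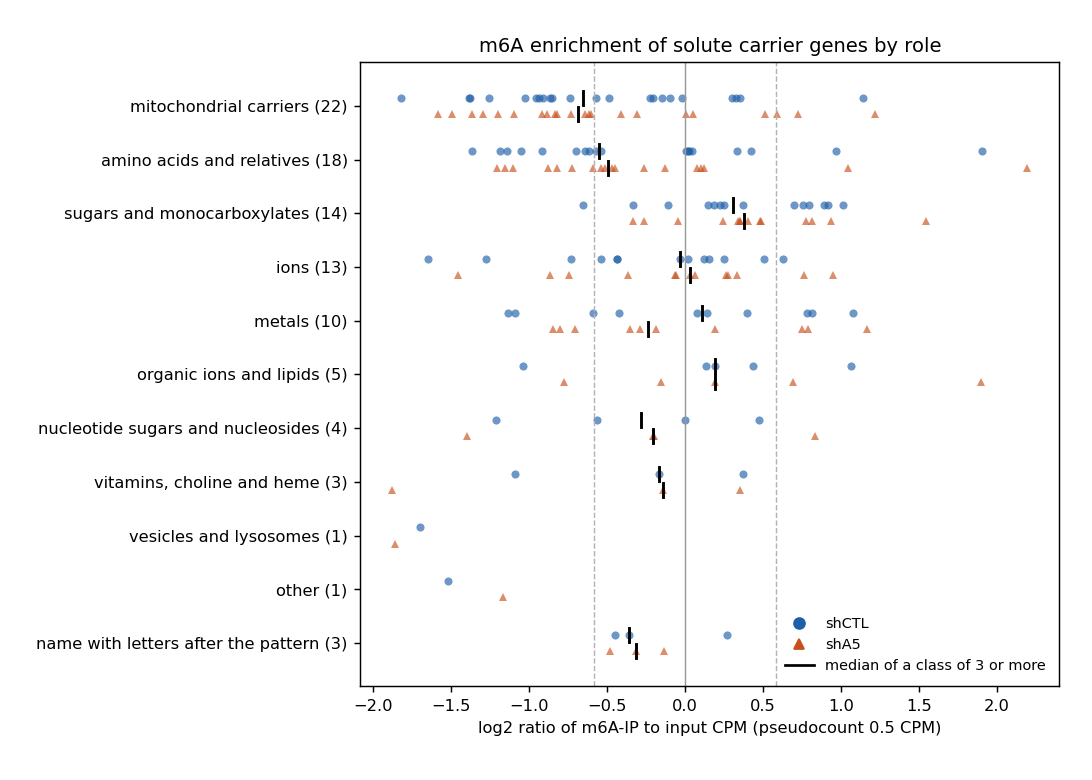
Log2 ratio of m6A-IP to input CPM for each of the 94 members in shCTL (circles) and shA5 (triangles), by role class with the number of members in parentheses, with black bars for the median of classes of 3 or more and dashed lines at 1.5-fold. Most mitochondrial carriers lie below 0, and 10 of 14 sugar and monocarboxylate carriers above 0, in both lines.

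The value of a member also went with its summed count and with base composition. The 35 members with at least 800 counts had a median of 0.15 in shCTL, and the 59 below that -0.49, but the summed count includes the m6A-IP counts and so is not independent of the ratio. The GC content of the most counted transcript had a median of 57.8% in the 14 enriched members, 55.4% in those between and 47.1% in those at or below 1/1.5. Across 93 members, Spearman's rho of GC content with shCTL enrichment was 0.25, and across 6958 genes it was 0.36. Over the 35 members with at least 800 counts it was 0.12. Genes are not independent replicates, and these values share the same libraries. Transcript length (rho -0.013), the longest exon (-0.069) and RRACH sites per kilobase (-0.0048) showed next to no relation over the members. Coding length (0.23), GGACT per kilobase (0.22) and the number of exons (-0.21) had a rho near that of GC content in size, beside 0.099, 0.16 and -0.23 over all genes. Over the 35 best counted members these were 0.12, 0.11 and -0.22. With the trend of all genes on GC removed, an alternative added after the data were seen, the 10 genes named for the ends of the range kept their side of 0. Their values moved: SLC38A2 stood at -0.64 in shCTL and at -0.22 in shA5, the latter no longer at or below 1/1.5, and SLC38A10 at 1.47 and 1.68. The order at the low end changed as well. SLC25A1 (-1.43) and SLC27A4 (-1.38) then stood below SLC38A1 (-0.73) and SLC38A2 in shCTL.

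Transcripts of the same gene did not always share a ratio. In 8 members at least 2 listed transcripts had 100 counts or more, giving 9 pairs of the most counted transcript with another, a rule chosen after the data were seen. In 6 pairs the interval of the difference was clear of 0 in shCTL, and in all 6 it was so in the same direction in shA5. A further pair, of the anion exchanger SLC4A2, was clear of 0 in shA5 at 1.49 (0.56 to 2.53) but not in shCTL, at 0.16 (-0.72 to 1.03). These are values of the transcripts as counted, and how reads common to several transcripts were assigned is not stated. The matching share over all genes is not given here, so the counts describe these 9 pairs only.

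In SLC38A10 the 16-exon transcript ENST00000374759 held 209, 1586, 55 and 850 counts in the order of libraries above, and its log2 enrichment was 2.10 (1.897 to 2.32) in shCTL and 2.67 (2.29 to 3.11) in shA5. The 14-exon ENST00000288439 held 42, 80, 28 and 70, with 0.11 (-0.44 to 0.69) and 0.057 (-0.59 to 0.75). The long form thus exceeded the short one by 1.99 (1.38 to 2.59) and 2.61 (1.82 to 3.41) on the log2 scale. It has 2080 bases that the short form lacks, 745 of them 3' UTR, with 27 RRACH sites and no GGACT. The high value of the gene was therefore carried by its long form.

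SLC3A2 showed the widest gap in shCTL. ENST00000338663 had 152, 391, 136 and 384 counts and a log2 enrichment of 0.54 (0.27 to 0.83) in shCTL, whereas ENST00000536981 had 54, 22, 29 and 16 and -2.02 (-2.90 to -1.37). The difference was 2.56 (1.86 to 3.49) in shCTL and 2.25 (1.37 to 3.38) in shA5. Only 123 bases of ENST00000338663 and 65 of ENST00000536981 are in no other listed transcript of the gene. The gap thus depends on how shared reads were assigned. Summed over its transcripts, SLC3A2 stood at 0.024 (-0.19 to 0.24) and -0.27 (-0.50 to -0.030), so the gene value mixed transcripts on both sides of 0, and on its most counted transcript alone the shA5 value turned to 0.23.

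For SLC38A1 the 8097-base transcript was at -1.25 (-1.44 to -1.07) and the 2599-base ENST00000552197 at 0.23 (-0.48 to 0.99) in shCTL. The basic amino acid carrier SLC25A29 had its 2-exon form at -1.09 (-1.36 to -0.84) and its 4-exon form at 0.76 (0.0035 to 1.65). In both genes the form with the low ratio was the longer one and held most counts. In SLC38A10 the longer form also held most counts, but it had the high ratio. SLC16A1 differed by 0.97 (0.34 to 1.58) in shCTL. The transcripts of SLC39A3 (0.93 and 1.28) differed by -0.35 (-0.76 to 0.041), an interval that includes 0.

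**Figure D3:**
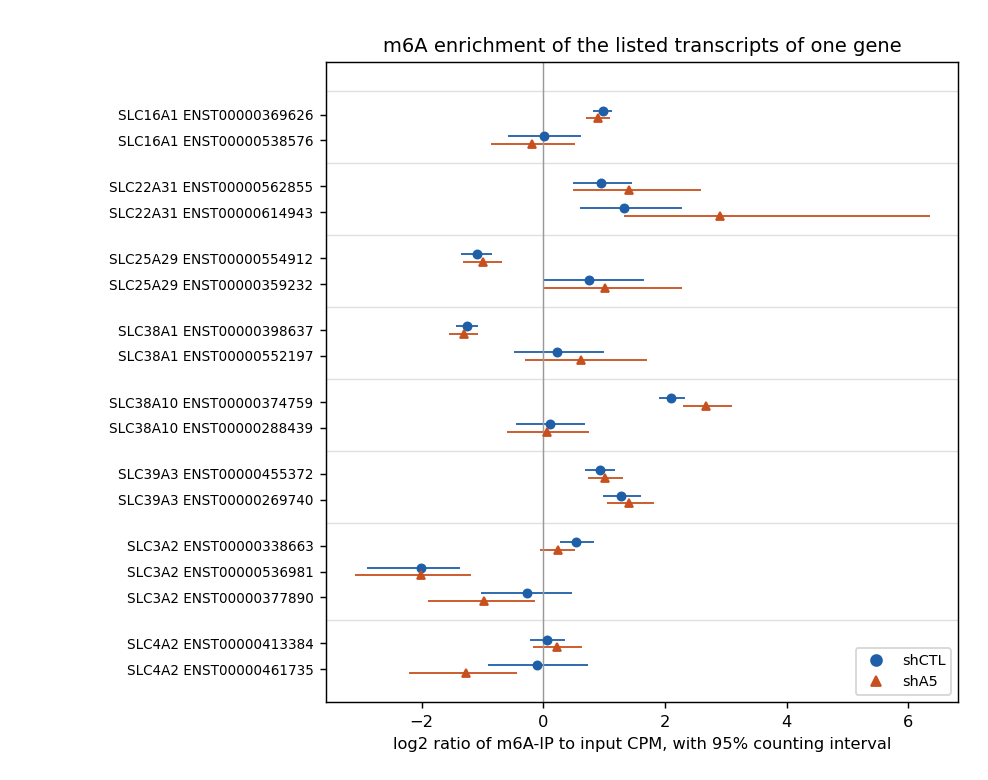
Log2 ratio of m6A-IP to input CPM with 95% counting intervals for the transcripts with at least 100 counts of 8 members, in shCTL (circles) and shA5 (triangles). The intervals of the transcripts of SLC38A10, SLC38A1, SLC25A29, SLC16A1 and of the first pair of SLC3A2 do not overlap in shCTL.

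The next comparison asked how m6A enrichment of the carriers differed between shA5 and shCTL. The order of the members was alike in both lines: Spearman's rho of the enrichments was 0.91 over the 94 members and 0.89 over all genes, and 77 members (81.9%) had the same sign, against 87.8% of all genes. At least 1.5-fold enrichment in both lines was found for 12 members (12.8%, against 16% of all genes) and a ratio at or below 1/1.5 in both for 25 (26.6%, against 28.2%). No member had intervals on opposite sides of 0 in the lines, which 21 of 7003 genes had.

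The median difference in log2 enrichment, shA5 minus shCTL, was 0.042 over the members and 0.0013 over all genes. It was at least 1.5-fold higher in shA5 in 7 members (7.45%, against 8.33% of all genes) and lower in 5 (5.32%, against 8.58%). The interval lay above 0 in 2 members (2.13%, against 7.31%) and below 0 in 4 (4.26%, against 7.33%). No member met both criteria, against 3.58% of all genes higher and 3.9% lower. All 12 past 1.5-fold had under 800 counts and intervals that included 0, from SLC22A31 at 0.84 (-0.095 to 1.96) to the heme transporter SLC48A1 at -0.79 (-1.71 to 0.13). None of the 35 members with at least 800 counts differed by 1.5-fold.

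Higher in shA5 with intervals clear of 0 were SLC38A2 and SLC2A1. For SLC38A2, with the CPM values given above, enrichment was higher by 0.37 (0.056 to 0.68), with the input at 229 and 191 CPM and the m6A-IP at 100.1 and 108 in shCTL and shA5. The glucose transporter SLC2A1 measured 195 and 222 CPM in the shCTL input and m6A-IP and 223 and 314 CPM in the shA5 pair, and its enrichment went from 0.18 (0.017 to 0.35) to 0.49 (0.30 to 0.68), a difference of 0.31 (0.050 to 0.56). In SLC2A1 the shA5 m6A-IP stood above the other 3 libraries, which lay between 195 and 223 CPM.

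Lower in shA5 were SLC9A3R1, SLC6A8, SLC7A5 and SLC25A6. SLC9A3R1, the scaffold, measured 83.6 and 101 CPM in the shCTL input and m6A-IP and 101 and 81.0 CPM in the shA5 pair, and its enrichment went from 0.27 (0.014 to 0.53) to -0.31 (-0.62 to 0.00091), a difference of -0.58 (-0.99 to -0.17). The creatine transporter SLC6A8 had 401 and 539 CPM in the shCTL input and m6A-IP and 374 and 402 CPM in the shA5 pair, a difference of -0.32 (-0.51 to -0.13). In both genes the m6A-IP level was lower in shA5 while the input intervals included no difference.

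SLC7A5 measured 463 and 585 CPM in the shCTL input and m6A-IP and 560.5 and 611 CPM in the shA5 pair. Its input was higher in shA5 and its m6A-IP nearly level, and the enrichment differed by -0.21 (-0.38 to -0.048). SLC25A6 had 1077 and 934 CPM in the shCTL input and m6A-IP and 1169 and 879 CPM in the shA5 pair, with a difference of -0.21 (-0.32 to -0.088), and it was the only member whose input (0.12, interval 0.024 to 0.21) and m6A-IP (-0.088, interval -0.16 to -0.016) had intervals on opposite sides of 0. SLC25A6 and SLC7A5 are among the most counted members, and both differences are under 1.5-fold. With the GC trend removed, SLC9A3R1 in shCTL and SLC7A5 in shA5 turned to the other side of 0 in enrichment (-0.058 and -0.23).

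By role, the medians of the difference were 0.032 for mitochondrial carriers, -0.016 for amino acids, 0.027 for sugars and monocarboxylates, 0.11 for ions and 0.013 for metals. No test was made of these medians. The counting interval of a single member had a median half-width of 0.54 over the 94 members and 0.28 over the 35 with at least 800 counts. A difference of 1.5-fold in a member with fewer counts was mostly not detectable at this depth: only 14 of those 59 had a half-width under that size.

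**Figure D4:**
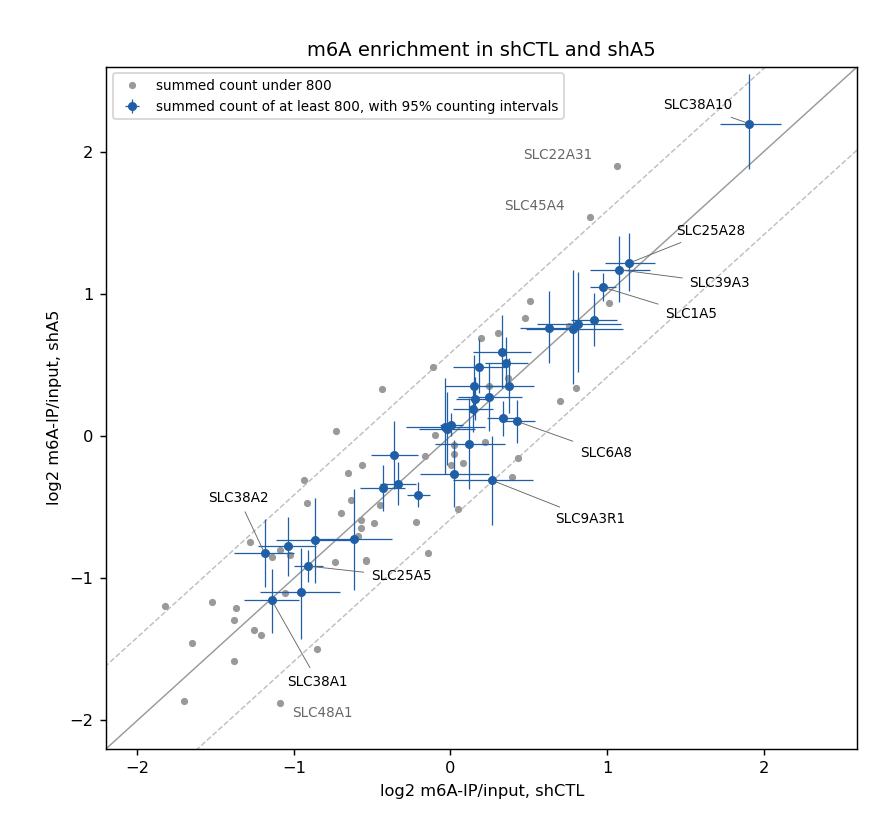
Log2 m6A enrichment of the 94 members in shCTL (horizontal) and shA5 (vertical), with 95% counting intervals for the 35 members of at least 800 counts (blue), grey points for the others, a line of equality and dashed lines 1.5-fold from it. Points follow the line of equality with Spearman's rho of 0.91, and the points beyond the dashed lines are grey.

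The last comparison asked how the RNA level of the carriers in the input differed between the lines. Fewer cells with an RNA and less RNA per cell cannot be told apart in bulk samples. The median log2 difference of input, shA5 minus shCTL, was -0.11 over the members and -0.017 over all genes, and 59 of 94 members were below 0 (62.8%, against 52% of all genes). At least 1.5-fold higher were 4 members (4.26%, against 5.68% of all genes) and lower 9 (9.57%, against 8.97%). With an interval clear of 0 there were 8 higher (8.51%, against 11.4%) and 13 lower (13.8%, against 13.8%). Both criteria were met by 2 higher (2.13%, against 3.88%) and 7 lower (7.45%, against 6.1%).

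Lower in the shA5 input by the widest margin was SLC22A31, a little-studied member of the organic ion family, with 65 and 12 input counts (29.05 and 9.15 CPM), 0.327 of the shCTL level at -1.61 (-2.69 to -0.77). Its m6A-IP was lower as well, 61.4 and 35.6 CPM. The sodium, calcium and potassium exchanger SLC24A4 had 50 and 15 input counts, a difference of -0.94 (-1.91 to -0.11), and SLC45A4 had 49 and 15, a difference of -0.91 (-1.88 to -0.078). These members rest on few counts in the shA5 input, the shallowest library.

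With more counts behind them, SLC38A10 and SLC2A4RG showed differences of like size. SLC38A10 was at 112 CPM in the shCTL input and 63.3 in shA5, 0.566 of the control at -0.82 (-1.20 to -0.46), and its m6A-IP was lower by less, -0.53 (-0.65 to -0.41). The difference lay on its long transcript, at -1.15 (-1.61 to -0.72), beside 0.18 (-0.56 to 0.91) for the short one. SLC2A4RG was at 286 and 165 CPM in the inputs, -0.79 (-1.02 to -0.57), and at 223 and 149.9 in the m6A-IP.

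SLC4A11 (-0.71, interval -1.48 to -0.022) and the glucose transporter SLC2A4 (-0.66, interval -1.30 to -0.072) complete the 7 members that met both criteria downward. Smaller differences with intervals below 0 were seen in the mitochondrial carriers SLC25A23 (-0.41, interval -0.67 to -0.15) and SLC25A11 (-0.34, interval -0.62 to -0.063), in the glutamine transporter SLC38A3 (-0.38, interval -0.72 to -0.060) and in SLC38A2 (-0.26, interval -0.48 to -0.037). SLC15A4 was another of the 13.

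Among the amino acid carriers, SLC3A2, SLC7A5 and SLC7A1 were higher in the shA5 input with intervals clear of 0. SLC3A2 went from 121 to 172 CPM, 1.43-fold at 0.51 (0.25 to 0.77), its partner SLC7A5 from 463 to 560.5, 0.27 (0.14 to 0.41), and SLC7A1 from 1063 to 1315, 0.31 (0.22 to 0.40). The glutamine transporters SLC1A5 (0.10, interval -0.017 to 0.22) and SLC38A1 (-0.16, interval -0.36 to 0.036) had intervals that included 0. SLC7A11, the other light chain of SLC3A2 among the members, was at -0.26 (-0.74 to 0.20). Over the 18 carriers of the amino acid class, 3 intervals lay above 0 and 4 below (16.7% and 22.2%, against 11.4% and 13.8% of all genes), with a median of -0.12.

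The heme transporter SLC48A1 had 46 shCTL input counts and 60 in the shallower shA5 input, 2.20-fold in CPM at 1.14 (0.58 to 1.74). SLC16A13, a monocarboxylate transporter relative, had 82 and 78, at 0.69 (0.23 to 1.16). These were the only members that met both criteria upward. The phosphate importer SLC20A1 (0.23, interval 0.058 to 0.40), SLC25A16 (0.42, interval 0.049 to 0.79) and SLC25A6 were higher by less. By role, beside 52% of all genes below 0 and their median of -0.017, 11 of 13 ion carriers were below 0, with a median of -0.21, 16 of 22 mitochondrial carriers (-0.12), 11 of 18 amino acid carriers (-0.12), 7 of 10 metal carriers (-0.077) and 7 of 14 sugar and monocarboxylate carriers (-0.077).

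The m6A-IP libraries differed between the lines much as the inputs did. Over the 94 members the difference in the input and that in the m6A-IP had a Spearman's rho of 0.58, over the 35 best counted members 0.72 and over all genes 0.38, where each point shares its cells between the measures. The sign was the same in 72 of 94 members (76.6%, against 64.7% of all genes). In the m6A-IP, the interval of the difference lay above 0 in 14 members (14.9%, against 16.3% of all genes) and below 0 in 17 (18.1%, against 19.2%). Intervals clear of 0 in both kinds of library were found upward in 3 of 94 members, SLC7A1, SLC3A2 and SLC20A1, against 339 of 7003 genes. Downward they were found in 7 members, against 521 of 7003 genes. Among these 7 were SLC38A10, SLC2A4RG, SLC22A31, SLC24A4, SLC25A23 and SLC38A3. SLC38A2 (-0.26 and 0.11) and SLC25A6 (0.12 and -0.088) differed in sign between input and m6A-IP.

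**Figure D5:**
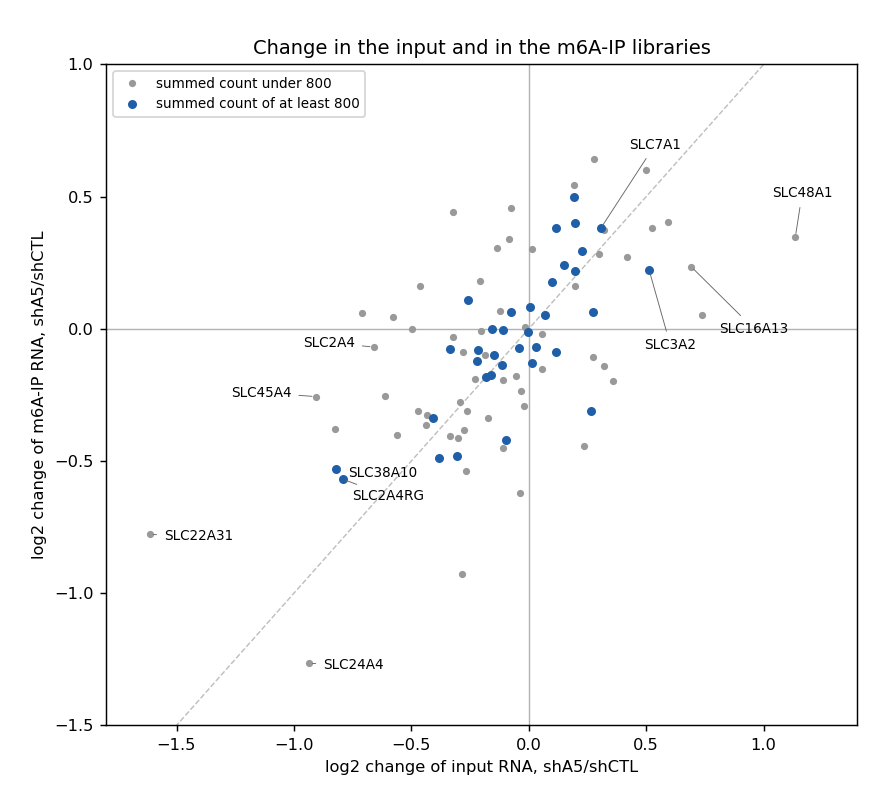
Log2 difference between shA5 and shCTL in the input (horizontal) and in the m6A-IP (vertical) for the 94 members, blue for at least 800 counts and grey below, with a dashed line of equality. SLC22A31, SLC24A4, SLC38A10 and SLC2A4RG lie at the lower left, and SLC7A1 and SLC3A2 at the upper right.

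Neighbouring genes of carrier biology were read in the same way. Of 20 genes of the amino acid response, whose factor ATF4 drives amino acid transporter genes, 11 had at least 100 counts. Their median input difference was -0.0011, 1 interval lay above 0 (SESN2, 0.28) and 1 below (PSAT1, -0.52), against 11.4% and 13.8% of all genes, and none passed 1.5-fold, which 5.68% of all genes did upward and 8.97% downward. Their median enrichment difference was -0.041, with 2 lower by 1.5-fold, against 8.58% of all genes, and no interval clear of 0. Of 15 partners and import factors of carriers, 8 had enough counts, with a median input difference of 0.059 and a median enrichment difference of -0.064. The interval of the enrichment difference of MTCH2, an insertion factor of the outer mitochondrial membrane and itself a carrier relative, was below 0 (-0.45), that of the input difference of TIMM10B was above 0 (0.35), and no partner differed 1.5-fold in either measure. BSG, the chaperone of SLC16A1, had 254, 701, 160 and 572 counts. Of 29 solute carriers named outside the pattern, 12 had enough counts, 3 with enrichment 1.5-fold higher in shA5 and 1 lower, against 8.33% and 8.58% of all genes. Their median input difference was 0.25, with 4 intervals above 0 and 1 below, against 11.4% and 13.8% of all genes.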

How the data were processed

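Input and m6A-IP libraries of polyA+ RNA from X-ray-exposed HEK293T cells were analysed, 1 library for each of the 4 groups. The deposited files hold raw counts per Ensembl transcript with gene name and length, listing only transcripts with a count, per the values. Per the labels and the study's methods, the authors used bcl2fastq 2.0, fastp 0.23.2, HISAT2 on hg38, SAMtools 1.9 and MACS2, and name StringTie for quantification. The counting program, annotation, strand setting and rule for shared reads are not given in the sources used here.

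Counts were summed per gene name and divided by the library total. The m6A enrichment is log2 of m6A-IP over input CPM, with 0.5 CPM added, and differences are shA5 minus shCTL. Intervals are 95% exact (Clopper-Pearson for a ratio of 2 counts, conditional odds ratio for an enrichment difference), without the added 0.5 CPM. A gene at or under 3 counts would be at the floor. With 1 library per group no test was made, and members are set beside all 7003 genes with at least 100 counts. Transcript features came from Gencode v44 (98.1% of 28413 listed transcripts matched; the symbol SLC26A10 is not in it) for the most counted transcript. Scripts were tested on simulated data. R 4.3.3, edgeR 4.0.16, DESeq2 1.42.0 (scaling factors only), Python 3.11.15, scipy 1.17.1 and statsmodels 0.14.6 were used.

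Genes were named by rule: among members with at least 800 counts, the 5 at each end of shCTL enrichment, of its difference and of the input difference, then the 2 of highest per-length level in each role class, the members nearest the limit, those with letters after the pattern, and ALKBH5. Other members are named where a count or a class is described, after their values were seen. Members, classes and lists were chosen with earlier results of these data known. Alternatives were TMM and DESeq2 scaling, added CPM of 0.1 and 2, limits of 200, 800 or no counts, a 2-fold threshold, and, added after seeing the data, the most counted transcript alone and removal of the GC trend. Some values and sequences that these rules select are not reported here.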

Additional observations from a re-analysis of the deposited data

How the results depend on the processing

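No paired analysis was possible because no group holds more than 1 library, and for the same reason no library could be left out. Of 128 alternative values of the summary results, 96 stayed within 1.5 times the count or within the spread of the members. Scaling by TMM or DESeq2 factors, fitted within the input pair and within the m6A-IP pair, moved no median of all genes by more than 0.02. This scaling kept the offset between m6A-IP and input nearly fixed, so it cannot test the level of enrichment. With 2 CPM added, 4 members were 1.5-fold higher in enrichment in shA5. With at least 200 counts, 19 (shCTL) and 20 (shA5) members were at or below 1/1.5, 2 were lower in enrichment in shA5 and 1 was higher in the input. With at least 800 counts, the median enrichments were 0.15 and 0.10, so the sign turned; 8 and 9 members were enriched, 7 and 7 were at or below 1/1.5, 0 differed in enrichment either way, 0 were higher and 2 lower in the input. Without a limit (264 symbols), 51 and 48 were enriched, 100 and 107 at or below 1/1.5, 55 and 55 higher and lower in enrichment, 43 and 53 higher and lower in the input, and the median input difference was -0.0095. At 2-fold, 5 and 6 were enriched, 18 and 14 at or below 1/2, 0 and 0 differed in enrichment and 1 and 1 in the input. Apart from the added 2 CPM, these settings change which genes are counted or the threshold itself.

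Of 860 alternative values of single members, 5 turned direction and 39 others moved out of their counting interval, 37 of these with the GC trend removed, among them SLC22A31 in shCTL to 0.27 and SLC2A4RG to -0.86. With the most counted transcript alone, SLC3A2 stood at 0.23 in shA5. With the GC trend removed, SLC12A7 stood at -0.15 (shCTL) and -0.088 (shA5), SLC7A5 at -0.23 (shA5) and SLC9A3R1 at -0.058 (shCTL). The cause was not tested. Depth limits the rest: the shA5 input, the shallowest library, sets 3 counts at 2.29 CPM, and a 1.5-fold difference in enrichment exceeds the counting interval in 49 of 94 members.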

Other observations

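Among the 12 solute carriers named outside the pattern with at least 100 counts, which took no part in the counts of members, SLC35F5 and SLC35E4 stood at the ends of the enrichment difference between shA5 and shCTL. SLC35F5, an orphan relative of the nucleotide sugar transporters, had 128 input and 79 m6A-IP counts in shCTL and 112 and 29 in shA5. Its enrichment stood at -1.49 (log2) in shCTL and at -3.14 in shA5, a difference of -1.65 (95% counting interval -2.47 to -0.95), while its input was higher in shA5 by 0.57 (0.20 to 0.96). SLC35E4 had 82 and 137 counts in shCTL and 27 and 137 in shA5. Its enrichment was -0.076 and 1.06, a difference of 1.14 (0.41 to 1.93), with the input lower by -0.82 (-1.52 to -0.19). Both differences exceed those of every one of the 94 members, and both genes were picked for their values. No explanation was tested.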
